A study of Mus musculus with 8 samples.

Results

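The 69 genes described here are the Eph receptors, ephrins, semaphorins, plexins, neuropilins, Slits, Robos, netrins, Unc5 receptors and Dcc, the large families of cues and receptors that steer axons and migrating cells. The rule that picks them uses gene symbols only, though the families were taken up with earlier results of these data known. Each gene matched 1 of the 20793 rows of the expression table. Of the 69, 46 reached at least 1 FPKM in at least 2 libraries and were tested, while 23 did not. FPKM is a count of sequenced fragments expressed as a level scaled by transcript length and library size.

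RNA was measured in 8 libraries of brain neural progenitors, dividing cells that can give rise to neurons, astrocytes and oligodendrocytes, from mice of strain FvB/C57BL/6. The libraries are labelled FUBP1-targeted, CIC-targeted or non-targeted (NT). The labels' protocol describes lentiviral hairpins with puromycin selection over 3 days for FUBP1, gives the same text for every library, and does not describe the CIC and NT constructs separately. The differentiating state was 5 days in neurobasal medium with B27 supplement, and its libraries were FUBP1-D (FUBP1-targeted), CIC-D (CIC-targeted), 7 (NT) and GFP-D (NT). The proliferating state was N2 medium with EGF and bFGF at 20 ng/ml, and its libraries were FUBP1 (FUBP1-targeted), CIC (CIC-targeted), TRC (NT) and GFP (NT). Values per library are listed in these 2 orders below. Each knockdown thus had 1 library per state, and the NT libraries carry names that point to different constructs. No label says whether libraries came from separate animals or cultures, so the p-values given here speak to library-to-library spread alone, part of which may be technical. FUBP1 binds single-stranded DNA and RNA and is known for roles in transcription and in splicing. CIC, or capicua, represses genes through a short octamer in DNA.

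Eph receptors are tyrosine kinases whose ligands, the ephrins, sit on the surface of the neighbouring cell, so that both cells can signal on contact. EphA receptors mostly bind the lipid-anchored ephrin-A ligands and EphB receptors the transmembrane ephrin-B ligands. Semaphorins signal through plexins, and most secreted class 3 semaphorins need a neuropilin as co-receptor. Slits are secreted repellents read by Robo receptors, and netrins are secreted cues read by Dcc and by the Unc5 receptors. In the brain these genes are known for axon guidance and, in the progenitor zones, for cell sorting, migration and proliferation.

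The knockdown labels and cell identity were checked first. Cic was at 32.1, 25.6, 42.0 and 35.3 FPKM in the differentiating libraries, against 49.5, 13.3, 39.4 and 33.8 FPKM in the proliferating libraries, so that it was lowest of its state in both libraries labelled CIC. Fubp1 was at 21.6, 26.9, 24.8 and 25.4 FPKM in the differentiating libraries, against 34.8, 34.8, 50.2 and 12.4 FPKM in the proliferating libraries. It was lowest of its state in FUBP1-D, but its lowest value of all lay in the proliferating NT library GFP, so the transcript goes against the label in that state and "labelled FUBP1" is used throughout. Summed FPKM of 12 neural progenitor markers was 3102 to 4795 in differentiating and 3780 to 5370 in proliferating libraries. Vim was the largest part of this sum in every library but CIC. Of the 11 progenitor markers tested, 2 passed as higher (Sox1 and Msi1) and 2 as lower. Those 2 were Fabp7, with a mean of 267 FPKM in differentiating against 1554 FPKM in proliferating libraries, and Olig2, with 128 against 342 FPKM. The sum of 10 astrocyte markers was 828 to 1297 against 324 to 404, with 6 of 10 passing the test as higher and 0 as lower. The sum of 10 neuron markers was 41.1 to 73.9 against 59.1 to 672, and that of 8 oligodendrocyte lineage markers was 121 to 284 against 53.7 to 111 (2 higher, 0 lower). Sums stayed at or under 7.71 FPKM in every library for markers of endothelium (10 genes, Cldn5 at 0 everywhere), mural and mesenchymal cells (8 genes) and microglia (8 genes). The astrocyte and oligodendrocyte markers and some progenitor markers moved with differentiation, as did the guidance genes below. The part of these markers in those results was not tested. In such bulk samples, fewer cells of a type and less RNA per cell cannot be told apart.

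The progenitors expressed receptors and cues of every family except the Slits and Dcc. The summed FPKM of the 69 genes was 987, 1227, 926 and 1055 in the differentiating libraries, against 630, 705, 559 and 639 in the proliferating libraries, which did not overlap. The netrin gene Ntn1 had the highest mean level over the 8 libraries at 131 FPKM, followed by the plexin Plxnb2 at 116 FPKM and the receptor Ephb2 at 59.1 FPKM. Ntn1 and Plxnb2 are neighbours in this order whose values over the 8 libraries overlapped widely. Nrp2, Sema3c, Sema4b, Plxna1, Sema6d and Ntn4 came next at 42.5 down to 29.6 FPKM, with ranges that also overlapped. At the other end, 20 genes stayed under 1 FPKM in every library and 3 more reached it in a single library. Those 3 were Efnb3 at 1.38 FPKM in library 7, and Unc5c at 1.10 FPKM and Sema3d at 1.48 FPKM in library CIC. Plxna4 was the 1 gene kept with exactly 2 libraries at 1 FPKM.

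**Figure D1:**
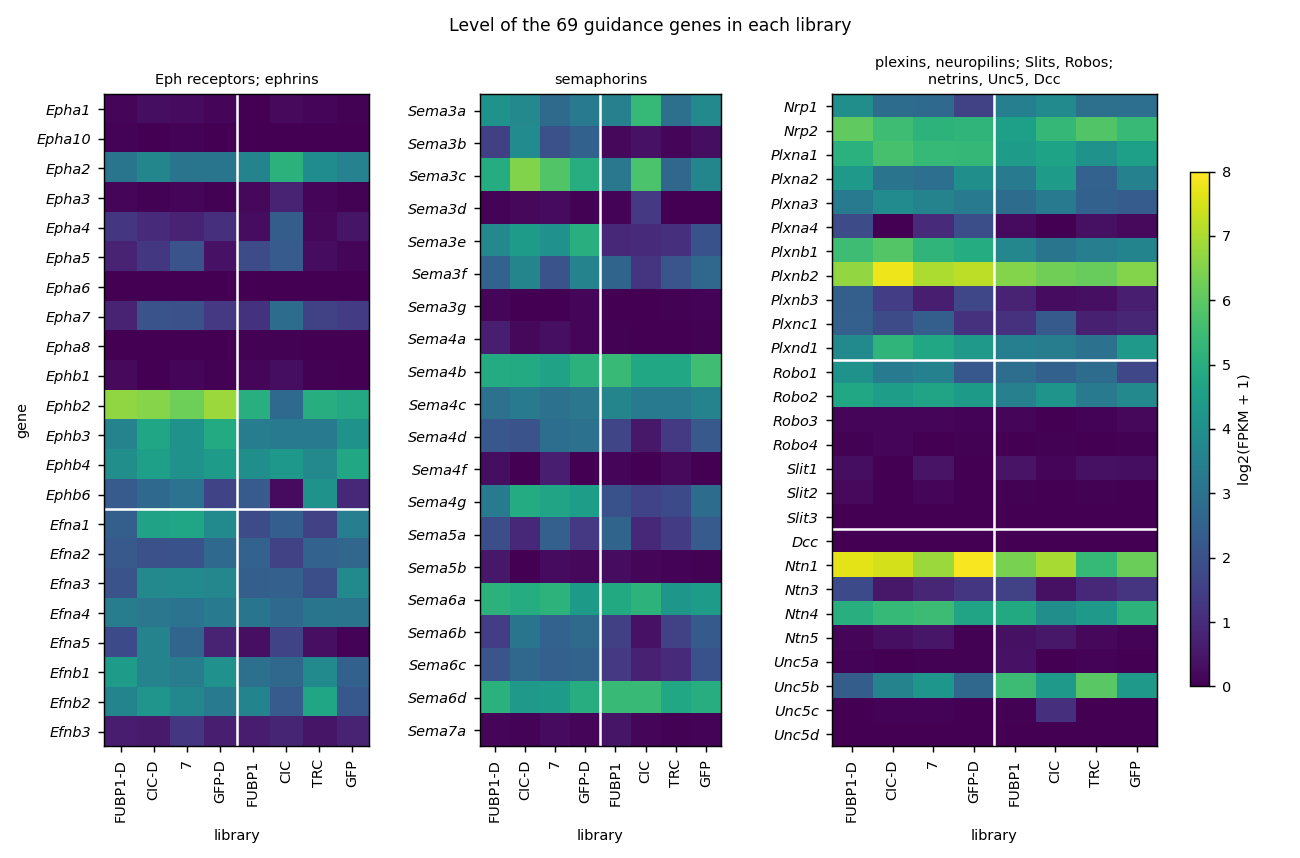
Heat map of log2(FPKM + 1) for the 69 guidance genes (rows, grouped by family) in the 8 libraries (columns, differentiating left of proliferating), from dark purple (0) to yellow (highest). Ntn1, Plxnb2 and Ephb2 stand out as the highest rows, and the Slits and Dcc stay near 0 in every library.

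On differentiation, guidance genes that passed the test were mostly higher. Each row's log2(FPKM + 1) was fitted with limma, a linear model with a shared estimate of variance, on state and hairpin label over all 8 libraries (4 residual degrees of freedom). P-values were adjusted over all 11968 rows that passed the same filter on low values, and a row was called at an adjusted p under 0.05. Of the 46 tested guidance genes 16 rose and 2 fell. Without FUBP1-D or without FUBP1 the counts were 10 and 0, and without both CIC-targeted libraries, left out after seeing the data, 11 and 1. Their 18 calls are 39.1%, close to the 38.8% called among all rows, so the share called is no result about these genes. By direction, 34.8% of them were called higher against 21.2% of all rows, and 4.35% were called lower against 17.7% of all rows. With quantile normalization the counts were 14 and 2 guidance genes and 2061 and 2210 rows, and with median-of-ratios scaling 16 and 2 genes and 2146 and 2480 rows, so among all rows the larger direction depended on the scaling. The median log2 change was 0.73 over the 46 and 0.09 over all rows (0.54 and 0.00 with quantile normalization), and 35 of 46 (76.1%) had a positive change against 54.2% of all rows. The filter bears on these counts, since 5 genes (Epha4, Efna5, Plxna4, Plxnb3 and Sema3b) had 2 libraries at 1 FPKM in the differentiating but not in the proliferating state. Of these, Efna5, Plxnb3 and Sema3b are among the 16. Changes on the log2(FPKM + 1) scale understate the change of low genes.

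**Figure D2:**
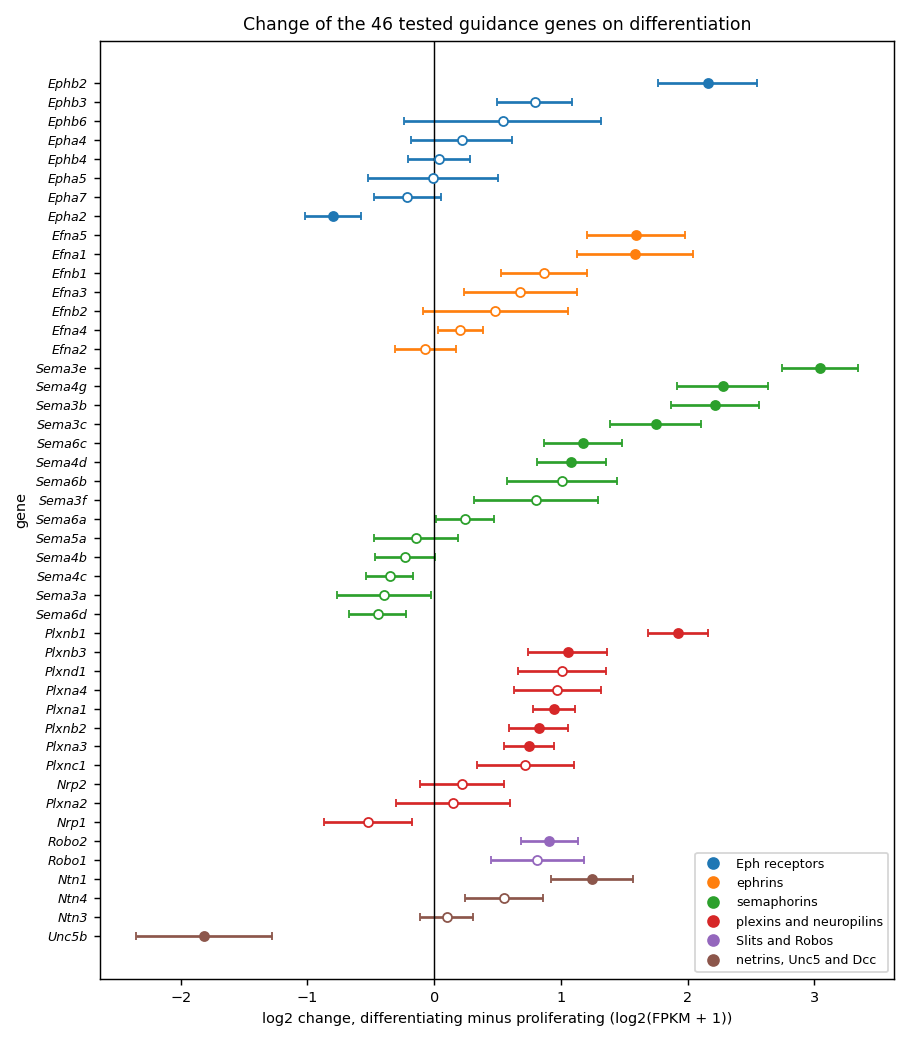
Log2 change (differentiating minus proliferating, on log2(FPKM + 1)) with its standard error for the 46 tested guidance genes, grouped by family; filled points have an adjusted p under 0.05. Filled points lie right of 0 for 16 genes and left of 0 for Unc5b and Epha2.

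Among the 14 Eph receptors, the EphB receptor Ephb2 rose and the EphA receptor Epha2 fell; 8 of the 14 were tested. Ephb2 stood at 101, 91.8, 74.2 and 110.1 FPKM in the differentiating libraries, against 32.3, 5.65, 30.8 and 27.2 FPKM in the proliferating libraries. Every differentiating library lay above every proliferating one (log2 change 2.16, SE 0.39, adjusted p = 0.0057). Epha2 stood at 7.71, 11.8, 7.50 and 7.65 FPKM in the differentiating libraries, against 11.1, 34.6, 14.0 and 10.6 FPKM in the proliferating libraries. It was lower in differentiation under every hairpin label (log2 change -0.80, SE 0.22, adjusted p = 0.026), but CIC-D lay above GFP and FUBP1, and the call was lost when any one of 7, CIC, CIC-D, FUBP1, FUBP1-D, GFP-D and TRC was left out (adjusted p = 0.053 to 0.071). Ephb4 and Ephb3 were the next most abundant Eph receptors. Ephb4 had 14.5, 22.03, 16.1 and 20.3 FPKM in the differentiating libraries, against 14.8, 18.4, 12.7 and 26.8 FPKM in the proliferating libraries, with wide overlap (log2 change 0.04, SE 0.25, adjusted p = 0.915). Ephb3 had 11.03, 25.6, 16.1 and 28.4 FPKM in the differentiating libraries, against 9.57, 8.73, 9.08 and 16.2 FPKM in the proliferating libraries (log2 change 0.79, SE 0.30, adjusted p = 0.070). Ephb6, which lacks kinase activity, was the least even of the tested EphB receptors, between 0.169 and 16.3 FPKM within the proliferating state. Of the 9 EphA genes, 5 stayed under 1 FPKM everywhere (Epha1, Epha3, Epha6, Epha8 and Epha10). Summed EphB level was 131, 145, 114 and 161 FPKM in the differentiating libraries, against 60.8, 33.2, 68.8 and 71.2 FPKM in the proliferating libraries. Summed EphA level was 10.8, 17.6, 14.6 and 10.8 FPKM in the differentiating libraries, against 15.3, 49.8, 16.4 and 12.8 FPKM in the proliferating libraries. The EphB sums did not overlap between states, and the highest EphA sum was that of library CIC. Ephb2 was the largest part of every differentiating EphB sum, and Epha2 was the largest part of the EphA sum of CIC. These sums therefore speak largely to single genes.

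Of the 8 ephrins, 7 were tested and the ligands Efna1 and Efna5 rose. Efna1 had 4.33, 23.4, 25.2 and 13.2 FPKM in the differentiating libraries, against 2.55, 4.23, 2.01 and 9.70 FPKM in the proliferating libraries. The lowest differentiating value, that of FUBP1-D, lay under the value of GFP, so the states overlapped (log2 change 1.59, SE 0.46, adjusted p = 0.031). Efna5 had 2.47, 10.9, 5.08 and 0.745 FPKM in the differentiating libraries, against 0.253, 2.15, 0.262 and 0.0603 FPKM in the proliferating libraries (log2 change 1.59, SE 0.38, adjusted p = 0.016). It was higher in differentiation under each hairpin label, but CIC lay above GFP-D. Without 7, CIC, CIC-D or TRC the call for Efna1 was lost (adjusted p = 0.051 to 0.109), and without CIC, CIC-D, FUBP1 or FUBP1-D that for Efna5 (adjusted p = 0.055 to 0.064). The transmembrane ligands Efnb2 and Efnb1 had the highest mean levels. Efnb2 had 11.2, 16.9, 12.2 and 8.86 FPKM in the differentiating libraries, against 11.3, 3.93, 25.7 and 3.60 FPKM in the proliferating libraries, and its values in the 2 proliferating NT libraries lay at either end of its range in that state (log2 change 0.48, SE 0.57, adjusted p = 0.525). Efnb1 had 20.0, 10.9, 9.43 and 15.4 FPKM in the differentiating libraries, against 6.77, 5.34, 13.01 and 4.59 FPKM in the proliferating libraries (log2 change 0.87, SE 0.34, adjusted p = 0.076). Efna4 was the most even ephrin, between 5.59 and 9.58 FPKM over all libraries, and was not called, nor were Efna2 and Efna3.

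Of the 20 semaphorins, 14 were tested, 6 rose and 0 fell. Class 3, the secreted semaphorins, held 3 of these, Sema3e, Sema3b and Sema3c, out of 5 tested in that class. Sema3e, a ligand of Plxnd1, had 12.5, 19.8, 15.4 and 31.4 FPKM in the differentiating libraries, against 0.851, 0.986, 1.17 and 3.00 FPKM in the proliferating libraries. Its lowest differentiating value was above its highest proliferating one, and it averaged 19.8 ± 8.28 FPKM in differentiating and 1.50 ± 1.01 FPKM in proliferating libraries (SD, n = 4 each), with a log2 change 3.05, SE 0.30, adjusted p = 0.000896. Sema3b had 1.83, 13.4, 2.97 and 4.56 FPKM in the differentiating libraries, against 0.117, 0.312, 0.0781 and 0.221 FPKM in the proliferating libraries, so that it lay under 1 FPKM in every proliferating library (log2 change 2.22, SE 0.35, adjusted p = 0.0036). Sema3c had 29.8, 87.8, 55.8 and 30.6 FPKM in the differentiating libraries, against 8.18, 51.8, 5.27 and 11.7 FPKM in the proliferating libraries (log2 change 1.75, SE 0.36, adjusted p = 0.0091). It was higher in differentiation under every label, yet CIC stood above FUBP1-D and GFP-D, so the states overlapped. Sema3a had 5.87 to 16.3 FPKM in differentiating and 6.77 to 39.7 FPKM in proliferating libraries and was not called.

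Among the membrane-bound semaphorins, Sema4g, Sema4d and Sema6c rose. Sema4g had 8.99, 29.1, 24.6 and 21.3 FPKM in the differentiating libraries, against 3.08, 2.08, 2.49 and 6.11 FPKM in the proliferating libraries, without overlap (log2 change 2.28, SE 0.36, adjusted p = 0.0036). Sema4d, a ligand of Plxnb1, had 3.49, 3.14, 6.41 and 7.02 FPKM in the differentiating libraries, against 2.20, 0.429, 1.55 and 3.70 FPKM in the proliferating libraries (log2 change 1.08, SE 0.27, adjusted p = 0.019). GFP stood above CIC-D and FUBP1-D in Sema4d, so its states overlapped. Sema6c had 3.30, 5.44, 4.42 and 4.90 FPKM in the differentiating libraries, against 1.50, 0.670, 0.989 and 3.08 FPKM in the proliferating libraries, again without overlap (log2 change 1.18, SE 0.31, adjusted p = 0.021). The call for Sema4d was lost without CIC, CIC-D or GFP-D (adjusted p = 0.052 to 0.072), and that for Sema6c without CIC, CIC-D, FUBP1, FUBP1-D or TRC (adjusted p = 0.051 to 0.078). Sema4b and Sema6d, the most abundant after Sema3c, pointed the other way without a call. Sema4b had 29.5, 28.8, 23.5 and 34.5 FPKM in the differentiating libraries, against 41.1, 26.9, 26.2 and 46.2 FPKM in the proliferating libraries (log2 change -0.23, SE 0.24, adjusted p = 0.456). Sema6d had 33.8, 18.8, 19.9 and 30.6 FPKM in the differentiating libraries, against 41.6, 41.1, 26.4 and 30.8 FPKM in the proliferating libraries (log2 change -0.45, SE 0.23, adjusted p = 0.152). Sema4c had 6.91 to 8.79 FPKM in differentiating and 8.80 to 11.4 FPKM in proliferating libraries, which did not overlap, but its difference was small and not called (log2 change -0.35, SE 0.19, adjusted p = 0.166).

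Plexins and neuropilins, the semaphorin receptors, were all measured and all tested: 11 genes, of which 5 rose and 0 fell. The rises took in each of the 3 plexin-B genes and 2 of 4 plexin-A genes, which act with neuropilins. Of the plexin-B genes, Plxnb1 and Plxnb2 encode receptors that bind class 4 semaphorins. Plxnb1 had 44.5, 57.7, 36.2 and 30.3 FPKM in the differentiating libraries, against 12.1, 7.58, 9.82 and 11.2 FPKM in the proliferating libraries, without overlap. It averaged 42.2 ± 11.9 FPKM in differentiating and 10.2 ± 1.98 FPKM in proliferating libraries (SD, n = 4 each), with a log2 change 1.93, SE 0.24, adjusted p = 0.0016. Plxnb2 had 103, 219.9, 129.8 and 148 FPKM in the differentiating libraries, against 91.3, 75.4, 69.2 and 90.5 FPKM in the proliferating libraries (log2 change 0.82, SE 0.23, adjusted p = 0.029). The states of Plxnb2 did not overlap either, and CIC-D stood highest by a wide margin. Plxnb3 was far lower, with 4.35, 1.73, 0.582 and 2.28 FPKM in the differentiating libraries, against 0.697, 0.209, 0.246 and 0.598 FPKM in the proliferating libraries, and library 7 lay under FUBP1 and GFP (log2 change 1.05, SE 0.31, adjusted p = 0.033). Plxna1 had 33.7, 50.4, 40.1 and 38.8 FPKM in the differentiating libraries, against 20.0, 24.1, 16.3 and 22.1 FPKM in the proliferating libraries, without overlap (log2 change 0.95, SE 0.17, adjusted p = 0.0052). Plxna3 had 8.55, 13.5, 10.98 and 8.68 FPKM in the differentiating libraries, against 6.10, 9.03, 4.62 and 4.02 FPKM in the proliferating libraries, and CIC exceeded FUBP1-D and GFP-D (log2 change 0.75, SE 0.20, adjusted p = 0.022). The calls for Plxnb2 (without 7, CIC, CIC-D, GFP-D or TRC), Plxnb3 (without CIC, CIC-D, FUBP1, FUBP1-D, GFP-D or TRC) and Plxna3 (without 7, FUBP1, FUBP1-D, GFP-D or TRC) were each lost when 1 of the named libraries was left out, with adjusted p between 0.051 and 0.134. Those for Plxnb1 and Plxna1 held without each library in turn.

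The other plexins and both neuropilins were not called. Plxnd1, the receptor of Sema3e, missed the threshold (log2 change 1.01, SE 0.35, adjusted p = 0.054), with 13.3, 36.7, 26.4 and 18.9 FPKM in the differentiating libraries, against 9.86, 9.28, 7.16 and 18.7 FPKM in the proliferating libraries. Plxna4 likewise missed it (log2 change 0.97, SE 0.34, adjusted p = 0.056) and was at 0.00954 FPKM in CIC-D against 2.62, 0.943 and 2.75 FPKM in the other differentiating libraries. Nrp2, the most abundant neuropilin, had 65.4, 44.8, 34.7 and 37.0 FPKM in the differentiating libraries, against 21.9, 39.2, 55.7 and 41.8 FPKM in the proliferating libraries with overlap (log2 change 0.22, SE 0.33, adjusted p = 0.618). Its partner Nrp1 was below Nrp2 in every library, at 1.92 to 14.3 FPKM. Neither co-receptor of the class 3 semaphorins was thus called.

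In the Slit and Robo family the receptors Robo1 and Robo2 were present, and Robo3, Robo4 and the 3 Slits were nearly absent. Slit1, the Slit of highest level, reached at most 0.351 FPKM, and the 3 Slits summed to between 0.0133 and 0.415 FPKM per library. Robo2 rose, with 26.7, 21.3, 24.6 and 19.5 FPKM in the differentiating libraries, against 10.3, 16.7, 8.55 and 12.6 FPKM in the proliferating libraries and no overlap (log2 change 0.91, SE 0.22, adjusted p = 0.017). That call was lost without 7, FUBP1 or FUBP1-D (adjusted p = 0.051 to 0.084). Robo1 had 16.3, 9.14, 10.4 and 3.63 FPKM in the differentiating libraries, against 6.46, 4.59, 6.09 and 2.26 FPKM in the proliferating libraries, which overlapped (log2 change 0.82, SE 0.36, adjusted p = 0.111). Robo3 and Robo4 stayed at or under 0.127 FPKM in every library.

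In the netrin family the cue Ntn1 rose and the receptor Unc5b fell, among 9 genes of which 4 were tested. Ntn1 had 205, 177, 111 and 239 FPKM in the differentiating libraries, against 82.0, 123, 40.4 and 72.0 FPKM in the proliferating libraries, averaging 183 ± 54.1 FPKM in differentiating and 79.3 ± 34.0 FPKM in proliferating libraries (SD, n = 4 each). It had a log2 change 1.25, SE 0.32, adjusted p = 0.021. It was higher in differentiation under every label, although CIC lay above library 7. Unc5b had 4.10, 10.9, 17.5 and 5.31 FPKM in the differentiating libraries, against 43.3, 19.1, 60.7 and 18.7 FPKM in the proliferating libraries, with every differentiating library under every proliferating one (log2 change -1.81, SE 0.54, adjusted p = 0.033). Within each state Unc5b still spread several-fold, and FUBP1 and TRC held the 2 highest values. Ntn1 lost its call without FUBP1 or FUBP1-D (adjusted p = 0.075 in both), and Unc5b without FUBP1, FUBP1-D, GFP-D or TRC (adjusted p = 0.076 to 0.127). Ntn4, a netrin that binds laminin, had 31.6, 39.7, 43.8 and 24.5 FPKM in the differentiating libraries, against 27.8, 14.5, 19.3 and 35.2 FPKM in the proliferating libraries, in overlap (log2 change 0.55, SE 0.31, adjusted p = 0.190). Ntn3 was tested but its interval overlaps that of Tbc1d24, and use of strand in the counting is not given in the sources used here, which makes its values uncertain. Dcc, the attractive netrin receptor, reached at most 0.0140 FPKM, and Unc5a and Unc5d also stayed under 1 FPKM. Among these receptors, Unc5b was thus the one at measurable level throughout.

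**Figure D3:**
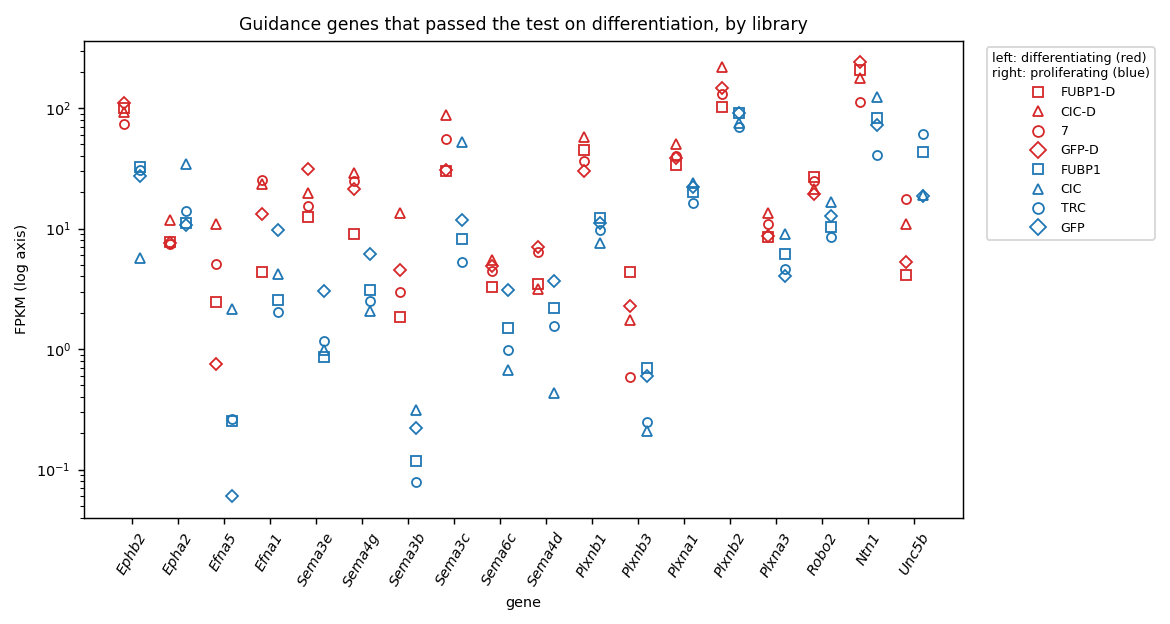
FPKM per library (log axis) of the 18 guidance genes with an adjusted p under 0.05 on differentiation; differentiating libraries are drawn left of proliferating libraries, and marker shape gives the hairpin label. Sema3b and Sema3e show the widest gaps, while single CIC points of Sema3c, Efna5 and Plxna3 reach into the differentiating range.

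Across the family, 7 of the 18 calls held in every alternative setting run (Ephb2, Plxna1, Plxnb1, Sema3b, Sema3c, Sema3e and Sema4g), and 11 were lost when at least 1 library was left out. When a knockdown library is left out, the other library of its label no longer bears on the state estimate. Leaving out CIC, CIC-D or both thus gives the same log2 change, as with FUBP1 and FUBP1-D, and these are not separate checks. Fewer residual degrees of freedom also remain. Some calls were lost although the log2 change was larger, as without FUBP1 for Epha2 (-0.91, against -0.80) and Sema6c (1.31, against 1.18). Processing alone also ended calls: without a filter on low values those of Efna1 (adjusted p = 0.071), Plxnb2 (0.051) and Unc5b (0.073), and with quantile normalization those of Plxna3 (0.054) and Plxnb3 (0.082). A fit of 6 group means called 11 genes higher and 1 lower. All 16 genes that rose were higher, and both that fell lower, in the differentiating library or mean of each of the 3 hairpin labels. Since these genes were called on the same libraries, this is no separate support for the calls. Over the 46, 23 (50%) were higher under all 3 labels against 38.6% of all rows, and 4 (8.7%) were lower under all 3 against 30.5%. Non-overlap of the states was near the background for higher genes, at 9 of 46 (19.6%, against 20.1% of all rows), and below it for lower genes, at 2 of 46 (4.35%, against 17.8%). Within the fit of 6 group means over all 8 libraries, limma also compared the 2 states of the 4 NT libraries. For that contrast 0 of 46 were called (175 of 11968 rows, 1.46%, of which 0.577% higher and 0.886% lower). At an unadjusted p under 0.05 stood 13 (28.3%, against 26.1% of all rows). The smallest p values there belonged to Sema3e (log2 change 2.97, SE 0.49, adjusted p = 0.056), Plxnb1 (log2 change 1.57, SE 0.27, adjusted p = 0.058), Sema3b (log2 change 2.03, SE 0.37, adjusted p = 0.061), Sema4g (log2 change 2.26, SE 0.42, adjusted p = 0.065) and Ephb2 (log2 change 1.61, SE 0.30, adjusted p = 0.066). Each of the 5 log2 changes was smaller than the one over all 8 libraries, of which these NT libraries are part. The median absolute log2 difference between the NT libraries 7 and GFP-D was 0.58 over the 46 and 0.30 over all rows, and that between TRC and GFP was 0.53 and 0.42.

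The 1 CIC-targeted library of the proliferating state stood apart, with high values for all 4 tested EphA receptors and for the class 3 cues Sema3a and Sema3c. With 1 library per state this comparison has no replicate within a state, so single-library values are descriptions. By the gap to the nearest other library of the state, used in the closing sections, the NT library GFP stood apart in 3.94% of all rows and CIC in 3.85%. Of the 46 guidance genes, 1 was set apart by that measure in GFP and 5 in CIC. A gene was set apart where the library lay more than 1 log2 unit beyond both NT libraries of its state. In library CIC 8 of 46 genes (17.4%, against 3.63% of all rows) lay above in this way: Epha2, Epha4, Epha5, Epha7, Efna5, Sema3a, Sema3c and Plxnc1. Plxnc1 is a plexin that binds Sema7a, which stayed under 1 FPKM in every library. Epha2 was at 34.6 FPKM in CIC, against 14.0 FPKM in TRC and 10.6 FPKM in GFP. Epha4 was at 4.14 FPKM in CIC, against 0.121 and 0.370 FPKM in TRC and GFP, and Epha7 at 6.13 FPKM in CIC, against 1.93 and 1.65 FPKM. Epha5 was at 3.96 FPKM in CIC, against 0.199 and 0.111 FPKM in TRC and GFP, but the library FUBP1 also held 2.54 FPKM. Of the 5 tested class 3 cues, 2 lay above in this way, Sema3a and Sema3c. Sema3a was at 39.7 FPKM in CIC, against 6.77 and 12.7 FPKM in TRC and GFP, and Sema3c at 51.8 FPKM in CIC, against 5.27 and 11.7 FPKM. Sema3e and Sema3f lay below both NT libraries instead, Sema3f at 1.35 FPKM in CIC, against 3.35 and 5.36 FPKM in TRC and GFP. Efna5 was at 2.15 FPKM in CIC, against 0.262 and 0.0603 FPKM in TRC and GFP. The untested genes Sema3d and Unc5c reached 1 FPKM in CIC alone, as given above. Library CIC had the highest sum of neural progenitor markers, 5370 FPKM, with Fabp7 at 2493 FPKM and Vim at 2007 FPKM as its largest parts. Fabp7 and Sox2, the latter at 480 FPKM, were the highest of all libraries there, and Egfr at 32.1 FPKM the highest of its state. Nes at 36.6 FPKM, Sox1 at 1.78 FPKM, Olig2 at 281 FPKM and Prom1 at 0 FPKM were the lowest of their state. The remaining progenitor markers lay within the range of the other proliferating libraries. The oligodendrocyte lineage sum of library CIC was the lowest of all libraries, 53.7 FPKM in CIC, against 91.5 and 110.8 FPKM in TRC and GFP. Its astrocyte sum, 360.2 FPKM, and neuron sum, 62.7 FPKM, lay between those of TRC and GFP, but single astrocyte markers did not. Aldh1l1 was at 3.28 FPKM in CIC, against 89.6 and 43.7 FPKM in TRC and GFP. S100b was at 9.16 FPKM in CIC, against 0.284 and 0.403 FPKM. The neuron sums of TRC and GFP lay far apart, at 672 and 59.1 FPKM, with Nefl at 537 FPKM in TRC. The part of these markers in the CIC values was not tested.

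Fewer of these genes lay on the low side in library CIC. Ephb2 and Sema6b lay more than 1 log2 unit below both NT libraries, 2 of 46 (4.35%, against 5.65% of all rows). Ephb2 was at 5.65 FPKM in CIC, against 30.8 FPKM in TRC and 27.2 FPKM in GFP. Sema6b was at 0.321 FPKM in CIC, against 2.02 and 3.86 FPKM. In the differentiating state 1 of 46 genes lay above in CIC-D (against 1.07% of all rows) and 0 below (against 1.76%). That gene was Sema3b, at 13.4 FPKM in CIC-D, against 2.97 FPKM in 7 and 4.56 FPKM in GFP-D. Ephb2 was at 91.8 FPKM in CIC-D, between 74.2 FPKM in 7 and 110.1 FPKM in GFP-D. Of the 8 genes above in CIC, 5 lay above both NT libraries by any margin in CIC-D, and 0 of the 46 lay beyond both NT libraries by 1 log2 unit in the same direction in both states.

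**Figure D4:**
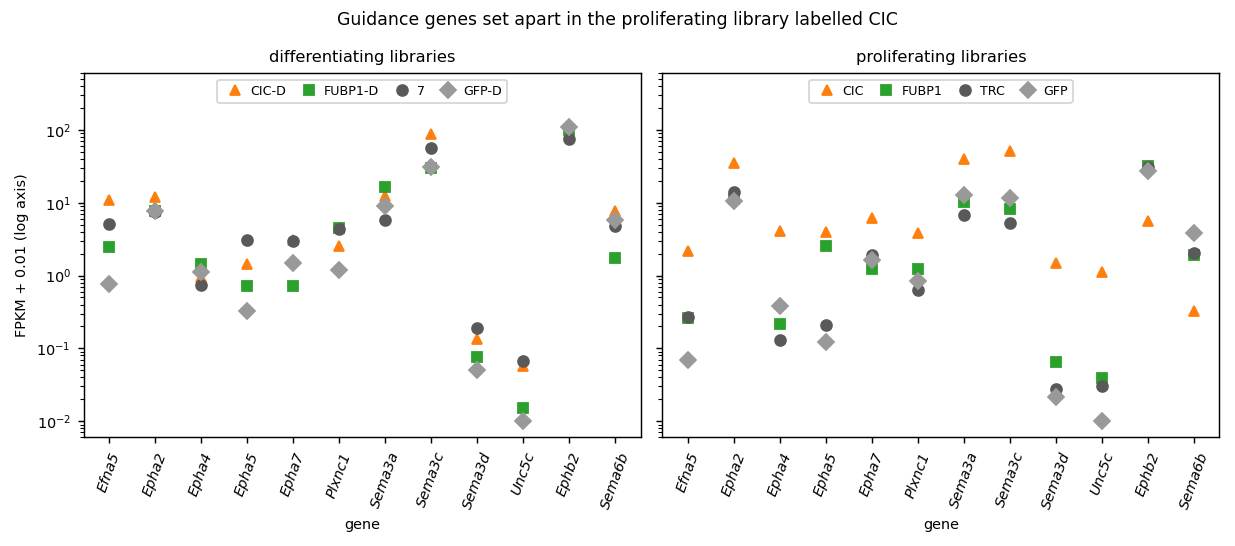
FPKM + 0.01 (log axis) in the differentiating (left panel) and proliferating (right panel) libraries for 12 guidance genes that stood apart in library CIC; triangles are the CIC-targeted libraries, squares FUBP1-targeted, circles and diamonds NT. In the right panel the triangle lies above the other points for 10 genes and below them for Ephb2 and Sema6b; in the left panel it mostly lies among them.

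Tested over both states, 0 of the 46 genes were called by limma for the CIC label (13 of 11968 rows called, 0.109%, of which 0.0167% higher and 0.0919% lower). At an unadjusted p under 0.05 there were 10 of 46 (21.7%, against 11.4% of all rows). The 5 genes of smallest p were Sema3c (log2 change 1.82, SE 0.44, adjusted p = 0.240), Epha2 (log2 change 1.01, SE 0.27, adjusted p = 0.278), Efna5 (log2 change 1.66, SE 0.47, adjusted p = 0.300), Sema4d (log2 change -1.09, SE 0.34, adjusted p = 0.332) and Sema3a (log2 change 1.34, SE 0.46, adjusted p = 0.362). Epha2 also stood highest of its state in CIC-D, at 11.8 FPKM, against 7.50 and 7.65 FPKM in 7 and GFP-D. A change of the CIC difference between states was called for 0 of 46 genes and 0 rows (4 genes and 512 rows at an unadjusted p under 0.05). The smallest p values were those of Ephb2 (log2 2.19 ± 0.52, SE), Epha4 (-2.03 ± 0.64), Sema6b (2.005 ± 0.66), Plxnb1 (1.20 ± 0.46) and Sema3b (1.42 ± 0.63), each with an adjusted p of 0.998. The difference between states in the CIC libraries therefore did not pass a test.

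Since CIC is known to bind the octamers TGAATGAA, TGAATGGA, TCAATGAA and TCAATGGA, the promoters of these genes were read for them on both strands. RefSeq promoters (build GRCm38.p6) were found for 59 of the 69 genes, in 75 windows of the 250 bases before a start site. An octamer was present in 1 of the 75 windows (1.33%), against 1048 of 32851 windows of all genes (3.19%). That window was the one of Epha2, whose octamer begins 15 bases before the start site. The windows of Epha2, of Sema3c, the gene of smallest p for the CIC label, and of Sema3e, the gene of steepest change on differentiation, are shown for comparison, with the octamer in capitals. All 3 lie on the plus strand, at chr4:141300971-141301220, chr5:17574566-17574815 and chr5:14025026-14025275.
Epha2: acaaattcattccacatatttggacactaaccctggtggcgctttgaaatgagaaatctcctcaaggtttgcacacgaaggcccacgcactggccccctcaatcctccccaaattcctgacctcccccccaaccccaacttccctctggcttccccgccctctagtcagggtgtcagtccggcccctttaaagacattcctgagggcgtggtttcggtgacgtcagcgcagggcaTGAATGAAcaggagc
Sema3c: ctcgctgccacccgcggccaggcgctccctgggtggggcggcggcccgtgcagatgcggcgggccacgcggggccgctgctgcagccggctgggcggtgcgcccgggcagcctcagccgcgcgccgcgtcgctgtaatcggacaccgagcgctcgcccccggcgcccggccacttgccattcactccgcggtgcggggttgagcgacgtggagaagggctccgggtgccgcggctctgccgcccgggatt
Sema3e: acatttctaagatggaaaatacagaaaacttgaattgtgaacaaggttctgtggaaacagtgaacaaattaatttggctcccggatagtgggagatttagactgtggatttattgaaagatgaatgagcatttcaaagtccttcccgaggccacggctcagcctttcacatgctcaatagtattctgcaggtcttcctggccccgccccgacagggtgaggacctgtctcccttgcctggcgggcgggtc
The Sema3c and Sema3e windows hold no octamer of these 4, and 78.4% of the Sema3c window is G or C, against 55.6% for Epha2 and 48% for Sema3e. A match is a description of letters and not a measured site. The spaced palindrome TTCNNNGAA bound by STAT factors was found in 2 of the 75 windows (2.67%, against 7.02% of all), those of Efna3 and Epha3.

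The libraries labelled FUBP1 stood apart in few guidance genes, most of them in the differentiating state. In FUBP1-D 4 of 46 genes lay more than 1 log2 unit below both NT libraries (8.7%, against 0.76% of all rows): Efna1, Efna3, Sema4g and Sema6b. Efna3 was at 3.10 FPKM in FUBP1-D, against 13.3 FPKM in 7 and 11.96 FPKM in GFP-D. Efna1 was at 4.33 FPKM in FUBP1-D, against 25.2 and 13.2 FPKM in 7 and GFP-D, and Sema4g at 8.99 FPKM in FUBP1-D, against 24.6 and 21.3 FPKM. The neuropilin Nrp1 was the 1 gene above both (against 1.24% of all rows), at 14.3 FPKM in FUBP1-D, against 5.73 FPKM in 7 and 1.92 FPKM in GFP-D. In proliferating FUBP1, 1 of 46 lay above, Epha5 (against 0.994% of all rows), and 0 lay below (against 0.125%). Over both states limma called 0 of 46 genes and 0 of 11968 rows (0%), with 2 genes (4.35%) and 256 rows (2.14%) at an unadjusted p under 0.05. The 5 of smallest p were Nrp1 (log2 change 1.16 ± 0.42, SE), Ntn3 (0.62 ± 0.26), Efna1 (-1.27 ± 0.56), Robo1 (0.94 ± 0.45) and Efna3 (-1.08 ± 0.54), each with an adjusted p of 0.999. Between states, 0 genes and 0 rows were called (1 gene and 99 rows at an unadjusted p under 0.05). The smallest p values belonged to Nrp2, Epha5, Nrp1, Sema3a and Sema4g, with log2 differences of 1.96 ± 0.48, -2.05 ± 1.05, 1.27 ± 0.80, 0.94 ± 0.69 and -0.97 ± 0.73 (SE). FUBP1-D had the highest marker sums of its state for astrocytes (1297 FPKM), neural progenitors (4795 FPKM) and the oligodendrocyte lineage (284 FPKM). The progenitor and oligodendrocyte sums of the NT library 7 were close to these, at 4647 and 275 FPKM. Of the astrocyte genes, Aldh1l1, Slc1a2, Gja1 and Aldoc were highest of their state in FUBP1-D. Gfap, Aqp4, Fgfr3, Sox9 and S100b were not, and Slc1a3 was lowest of its state there at 236 FPKM. The part of these markers in the FUBP1-D values was not tested. The CIC and FUBP1 comparisons share their NT libraries, whose spread is part of the residual of these tests. Over all tested rows, FUBP1 correlated with TRC at 0.980, against 0.914 for TRC with GFP. FUBP1-D correlated with 7 at 0.959, against 0.927 for 7 with GFP-D. Libraries labelled FUBP1 thus lay closer to 1 NT library of their state than the NT libraries lay to each other.

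Several members are neighbours on a chromosome, and neighbours did not always move together. Efna1, Efna3 and Efna4 lie in a row on chromosome 3 (build mm9), 34.0 and 10.5 kb apart, with 0 other rows between them. Efna1 and Efna3 were the lowest of their state in FUBP1-D, whereas Efna4 was at 9.58 FPKM there, the highest of its 8 values. On chromosome 5, Sema3d, Sema3a and Sema3e follow each other at 808 and 422 kb, with 0 and 1 rows between. Sema3d and Sema3a were highest of all libraries in CIC, while Sema3e was at 0.986 FPKM there, among its low proliferating values. Robo1 and Robo2, 846 kb apart on chromosome 16 with 0 rows between, both had positive log2 changes on differentiation, and Robo2 alone was called.

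The genes that act with the guidance receptors were called higher at a share near that of all rows, and lower at a smaller share. Of 99 listed partners and effectors 90 were tested, of which 22 rose (24.4%, against 21.2% of all rows) and 6 fell (6.67%, against 17.7%), 31.1% in all against 38.8%. By list, 5 rose and 0 fell among 19 tested receptor partners and other cues, 7 and 1 among 19 semaphorin and plexin effectors, and 4 and 1 among 19 Eph and ephrin effectors. A further 3 rose and 2 fell among 17 Slit, Robo and netrin effectors, and 3 and 2 among 16 shared GTPases and kinases. With 21.2% of all rows called higher, the presence of risers in each list is no result about these genes. Draxin, a secreted repellent that binds netrin receptors, had 25.9, 21.2, 24.2 and 17.6 FPKM in the differentiating libraries, against 0.841, 0.132, 1.26 and 1.41 FPKM in the proliferating libraries (log2 change 3.65, SE 0.25, adjusted p = 0.000584). It was also the 1 pathway gene called by limma between the states of the NT libraries (log2 change 3.21, SE 0.32, adjusted p = 0.044). The other 5 of smallest p were the actin-binding Ablim1 (log2 change 2.61, SE 0.23, adjusted p = 0.000735), the cofilin kinase Limk2 (log2 change 1.63, SE 0.19, adjusted p = 0.0014), the netrin-G gene Ntng2 (log2 change 1.91, SE 0.31, adjusted p = 0.0038), the PDZ protein Pick1 (log2 change 1.13, SE 0.18, adjusted p = 0.0038) and the Slit-binding dystroglycan Dag1 (log2 change 1.10, SE 0.19, adjusted p = 0.0045). For the CIC label 0 of the 90 were called, with the netrin receptor Neo1 at 5.40 FPKM in CIC-D and 8.00 FPKM in CIC, against 36.8 and 40.5 FPKM in 7 and GFP-D and 27.6 and 22.1 FPKM in TRC and GFP (log2 change -2.07, SE 0.32, adjusted p = 0.112). Neo1 was thus low in both states under that label without passing the adjusted threshold. At an unadjusted p under 0.05 stood 13 of the 90 for the CIC label (14.4%, against 11.4% of all rows). For the FUBP1 label 0 were called, and 4 stood there (4.44%, against 2.14%).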

How the data were processed

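The values are FPKM, as deposited by the authors in 1 table for all 8 libraries. The submitters' processing notes name bcl2fastq 2.17, cutadapt, TopHat2 2.0.11, Cufflinks 2.1.1 and build mm9; settings, annotation and strand use are not given in the sources used. The table holds no fragment counts, so depth is unknown and no counting interval is given. Differences in long or near-identical genes can reflect how Cufflinks assigned fragments.

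Rows with at least 1 FPKM in at least 2 libraries were analysed as log2(FPKM + 1) with limma 3.58.1 in R 4.3.3, on state and hairpin label, with p-values adjusted by Benjamini-Hochberg over 11968 rows. A second fit with 6 state-by-label groups (2 residual degrees of freedom) gave the NT comparison and the change of label differences between states. The fit was tested on simulated data with known changes on differentiation. It recovered 20 of 61 rows with a log2 change of 1, 61 of 74 with one of 2 and 63 of 65 with one of 4. There were 8 false calls over 11968 rows. A gene that was not called may therefore still have changed by about 1 log2 unit.

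The members and gene lists were chosen with earlier results of these data known. Genes named are those past the threshold, or the 5 of smallest p where none passed, the 3 of highest mean level per family, and at most 6 pathway genes of smallest p per comparison; genes beyond these were named after their values were seen. Alternatives were other scalings, pseudocounts, filters, models and leaving out libraries. Promoter windows came from RefSeq GRCm38.p6 and were not joined to mm9 positions.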

Additional observations from a re-analysis of the deposited data

Results flagged for a closer look

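In 8 of 92 combinations of a tested gene and a state, 1 of the 4 libraries lay far from the other 3, with a gap to its nearest neighbour on log2(FPKM + 1) beyond Dixon's 95% critical value as a share of the state's range. Chance gives about 1 in 20 such combinations, and the 4 libraries of a state carry different hairpin labels. Over all rows, the share set apart was 1.49%, 1.37%, 0.861% and 1.45% in the differentiating libraries. It was 0.226%, 3.85%, 0.259% and 3.94% in the proliferating libraries. Of the 46 guidance genes, 1, 1, 0 and 0 were set apart in the differentiating and 0, 5, 0 and 1 in the proliferating libraries. In 5 of the 8 the library was CIC, which stood apart in this way in 461 of 11968 rows (3.85%), a share similar to that of the NT library GFP (3.94%).

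In library CIC the receptor Epha4 was high at 4.14 FPKM and its ligand Efna5 high at 2.15 FPKM. Also in CIC, Efna2 was low at 1.91 FPKM, Efna4 at 5.59 FPKM and Ephb2 at 5.65 FPKM. Epha2 was high in CIC-D at 11.8 FPKM. Efna3 was low in FUBP1-D at 3.10 FPKM. Ephb3 was high in the NT library GFP at 16.2 FPKM. All 8 belong to the Eph and ephrin families, for which 15 of the 46 genes were tested.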

How the results depend on the processing

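The number of guidance genes called on differentiation was 18 and ranged between 10 and 19 when 1 library was left out, and rows called ranged between 2477 and 4857 around 4647. A fit of 6 group means called 2906 rows. Without both libraries labelled CIC, or without CIC and GFP (both chosen after seeing the data), 12 guidance genes were called.

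For the CIC label, 13 rows were called. The count was 35 with a pseudocount of 0.1, 4 with one of 5, 2 with no filter, 8 with a filter at 5 FPKM, 3 with both GFP libraries left out, 1 with group means, 92 with the GFP libraries as an arm of their own, and 2 to 18 without single libraries. Between NT libraries, 175 rows were called, and 276 with quantile normalization, 0 with a pseudocount of 5, 0 with no filter, 323 with a filter at 5 FPKM and 0 to 442 without single libraries. Guidance genes called there numbered 2 with the 5 FPKM filter and 0 to 1 without single libraries. The causes were not tested.

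Of the values for single genes named above, 0 changed sign where called; on differentiation 75 of 339 lost their call, and between NT libraries 3 of 74 gained one. Quantile and median-of-ratios scaling moved the median log2 change of all rows by -0.08 and -0.09, and the median of the guidance genes became 0.54 and 0.65. No fit with a replicate block was made, because the labels give no replicate numbers shared between groups. By library name, the fit with the GFP libraries as an arm of their own also sets GFP-D against GFP and 7 against TRC, and it called 21 guidance genes on differentiation. Leaving out both GFP libraries between NT states, or a knockdown library for its own change between states, was not run, since no residual degrees of freedom or no contrast remain. With 1 library per knockdown and state, label differences rest on 2 libraries each, and values under 1 FPKM are coarse.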
